A study of Daphnia magna with 12 samples.

Results

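The 100 most abundant gene models in whole-body RNA of Daphnia magna held between 35.0 and 45.1% of all counted reads in each of 12 libraries. Each gene's count was divided by its library total and multiplied by 1000000 to give its CPM, the reads of that gene in every 1000000, and the 100 genes with the highest mean CPM over all 12 libraries were taken from the 21456 gene models counted. These genes are called members here and are named by their rank in that order, from rank 1 (the most abundant) to rank 100. All 100 passed the filter on low counts, as did 10987 genes in all. The mean level over the 12 libraries chose the members, so their high level is a description and not a result. At the edge of the rule, ranks 96 to 100 had mean values of 1336, 1325, 1317, 1313 and 1295 CPM, and the 5 genes just outside it had 1294 to 1223 CPM.

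Daphnia magna is a freshwater crustacean whose females reproduce clonally. All animals were females of the single genotype GB-EL75-69, each housed alone in 20 mL of ADaM medium at 20 °C and fed 100000 cells of the alga Scenedesmus acutus per mL per day, with no treatment but age. The tissue is labelled as whole body and somatic. The 3 groups, with 4 libraries each, were young reproducing females aged 20 days (Y), reproducing females aged 130 to 170 days (old reproducing, Or), and females of this age range that no longer reproduced (old non-reproducing, On). As a model of age they rest on 1 clone, and young females without reproduction were not among the groups. Old reproducing and young females differ in age while both reproduce, and the 2 old groups differ in reproduction within 1 age range. Old non-reproducing and young females differ in both, so age and the end of reproduction cannot be told apart in that comparison.

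In an animal's RNA a small number of genes usually accounts for a large part of all messenger molecules, because some proteins are made in bulk: structural proteins of muscle and cuticle, digestive enzymes of the gut, oxygen carriers, and yolk protein in egg-producing females. Adult Daphnia moult repeatedly and release a brood at the moult, and messages for cuticle and yolk are known to follow that cycle in crustaceans. A read share is relative: when 1 very abundant gene takes fewer reads, the shares of other genes rise without any change in their own molecules. In whole animals, fewer cells of a type and less RNA per cell cannot be told apart.

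The deposited files give gene model IDs without names, and none of them matched the reference table, so no function is assigned to any member and the labelled tissue could not be checked against marker genes. Library totals ranged from 16015869 to 25659597 counted reads. The labels do not say whether each library came from separate animals, and p-values therefore measure the spread between libraries. Libraries carry consecutive numbers in 1 block per group, whose meaning the labels do not give, so anything that follows those numbers cannot be told apart from the group.

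The members' share of reads was lower in both old groups than in young females. In young females the members held 43.3, 43.7, 45.1 and 43.5% of reads in replicates 1 to 4, a mean of 43.9% ± 0.779 (SD, n = 4). In old reproducing females they held 43.1, 41.4, 39.96 and 38.7%, a mean of 40.8% ± 1.88 (SD, n = 4). In old non-reproducing females they held 36.3, 38.0, 43.2 and 35.0%, a mean of 38.1% ± 3.60 (SD, n = 4). Every old library lay below every young library, with the highest old libraries at 43.1 and 43.2% against 43.3% for the lowest young one, while the 2 old groups overlapped. The difference in mean share from young was -5.76 percentage points (SE 1.84) in old non-reproducing females and -3.10 points (SE 1.02) in old reproducing females. Between the old groups it was -2.66 points (SE 2.03), and 0.239 points, the opposite sign, where library totals were scaled by TMM factors. By summed RPKM (CPM per 1000 nt of gene model), the difference of old non-reproducing from young females was -2.47 points, and with rank 1 left out of both members and totals, a choice made after seeing the data, it was -2.21 points. No p-value is given for this share, because the members were chosen from the same libraries.

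**Figure D1:**
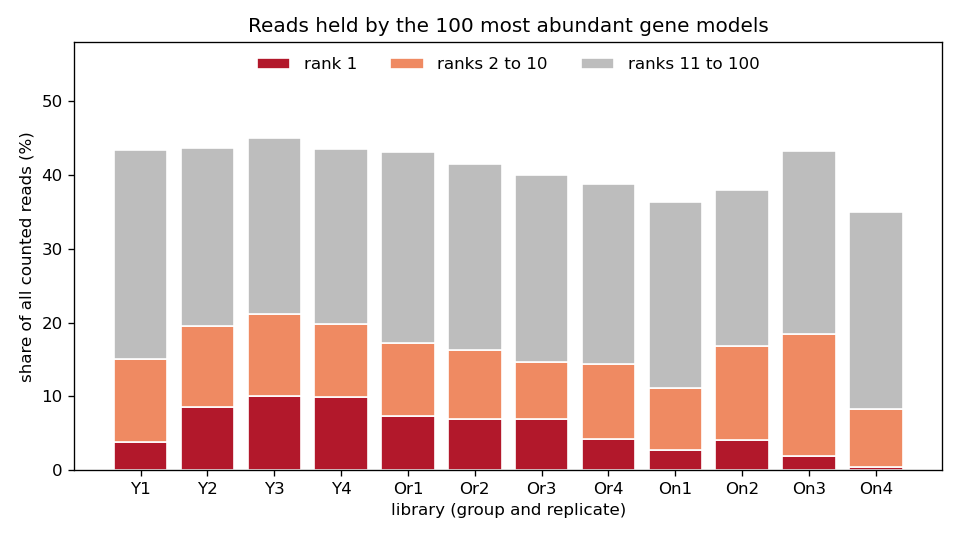
Percent of all counted reads held by the 100 members in each of the 12 libraries (x axis: young Y1 to Y4, old reproducing Or1 to Or4, old non-reproducing On1 to On4), with the part held by the gene model of rank 1 set apart from the other members. The rank 1 part is 3.83 to 10.04% of reads in young libraries and 0.381 to 4.11% in old non-reproducing ones, while the sum of the other 99 members overlaps between the groups.

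The most abundant gene model had the largest single difference between old non-reproducing and young females among the 100 members. It is genemark-000016F-processed-gene-1.92, with a model length of 4653 nt. Its share of reads was 3.83, 8.54, 10.04 and 9.95% in young replicates 1 to 4, 7.38, 6.99, 6.93 and 4.15% in old reproducing replicates, and 2.65, 4.11, 1.85 and 0.381% in old non-reproducing replicates. The old non-reproducing libraries lay below all old reproducing libraries, and below all young libraries but replicate 1. The group means were 8.09% ± 2.92 in Y, 6.36% ± 1.49 in Or and 2.25% ± 1.56 in On females (SD, n = 4 each). Its mean share differed from young by -5.84 points (SE 1.65) in old non-reproducing females, beside a net -5.76 points for all members together, to which gains and losses of other members also contributed.

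The change of the rank 1 gene did not pass the test. With edgeR's quasi-likelihood test and Benjamini-Hochberg adjustment over all 10987 genes, its log2 change between old non-reproducing and young females was -1.89 (SE 0.59, adjusted p = 0.0594). DESeq2 put the same gene past the threshold of 0.05, with a log2 change of -1.91 and an adjusted p of 0.00406. Without young replicate 1, its lowest young library, the edgeR log2 change was -2.10 with an adjusted p of 0.0417. Against old reproducing females the edgeR log2 change was -1.45 (SE 0.59, adjusted p = 0.527), and between old reproducing and young females it was -0.44 (SE 0.58, adjusted p = 0.778). It was the most abundant gene in 9 of the 12 libraries. In young replicate 1 and old non-reproducing replicate 4 the gene of rank 2 was more abundant, and in old non-reproducing replicate 3 the gene of rank 7 was.

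Outside rank 1, the members' total differed between young and old non-reproducing females by less than its standard error. The other 99 members held 35.8% ± 2.56 of reads in Y, 34.4% ± 1.10 in Or and 35.9% ± 3.67 in On females (SD, n = 4 each), with rank 1 kept in the library totals. Old non-reproducing replicate 3 stood at 41.4%, and the other libraries of its group at 33.7 to 34.6%. The difference of old non-reproducing from young was 0.085 points (SE 2.24), that of old reproducing from young -1.37 points (SE 1.40), and that between the old groups 1.45 points (SE 1.92), each within the spread between libraries. Ranks 2 to 10 held 10.8, 9.32 and 11.4% of reads on average in Y, Or and On females, and ranks 11 to 100 held 25.03, 25.1 and 24.5%.

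Between old non-reproducing and young females, 51 members had a higher mean share, by 6.85 points in all, and 49 had a lower one, with a sum of -12.6 points. Without rank 1 the losses summed to -6.77 points, nearly the size of the gains. Rank 1 alone made up 46.3% of the losses, and 2 members made up over 50% of them, while 6 members were needed for 50% of the gains. Most members contributed little: 62 of the 100 differed by less than 0.1 points. For 16 members the difference exceeded 2 standard errors, beside 16 between old reproducing and young females and 13 between the old groups. This count was not made over all tested genes, so it is a description.

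Between old reproducing and young females, more members were needed for 50% of the losses and of the gains. There the gains summed to 5.11 points over 45 members and the losses to -8.21 points over 55, and rank 1 made up 21.1% of the losses (-1.73 points, SE 1.64). It took 5 members to reach 50% of the losses and 8 to reach 50% of the gains, with 71 members within 0.1 points. The part of rank 1 depended on young replicate 1, its lowest young library. Without that library the net difference was -3.47 points, and that of rank 1 was -3.15 points. Between the 2 old groups the gains summed to 5.40 points and the losses to -8.06 points over 50 members each, and rank 1 made up 51.0% of the losses (-4.11 points, SE 1.08). Because both old groups are set against the same 4 young libraries, these values stand side by side and are not independent of each other.

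**Figure D2:**
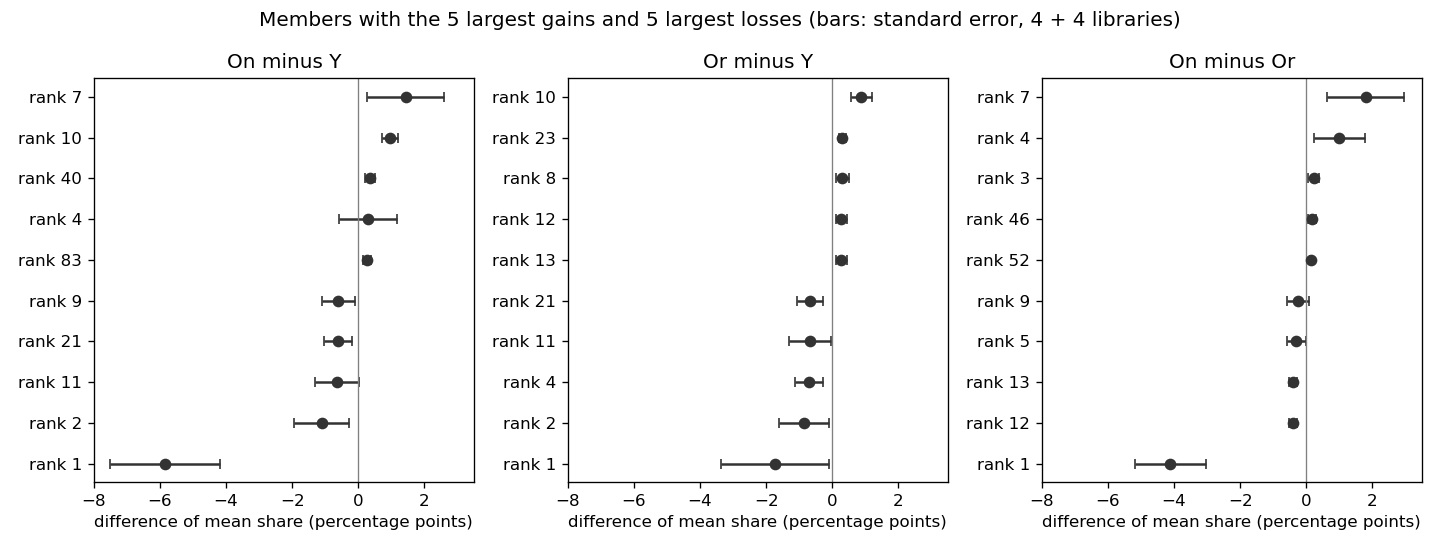
Difference in mean share of reads (percentage points, x axis) for the 5 members with the largest gain and the 5 with the largest loss in each comparison, with a point for each difference (On minus Y, Or minus Y and On minus Or, 4 libraries a group) and error bars of 1 standard error. Rank 1 has the largest loss in all 3 panels, -5.84, -1.73 and -4.11 points, and rank 7 the largest gain in both comparisons that involve old non-reproducing females.

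The second largest loss belonged to the gene of rank 2, maker-000000F-snap-gene-54.58. It took 4.32, 2.18, 2.86 and 0.793% of reads in young replicates 1 to 4, 1.91, 2.03, 1.28 and 1.503% in old reproducing and 1.84, 0.344, 1.52 and 2.04% in old non-reproducing replicates. The groups overlapped, with both high and low libraries among the young. Its mean share was different from young females by -1.10 points (SE 0.826) in old non-reproducing females, and its log2 change of -0.89 (SE 0.62) did not pass edgeR's quasi-likelihood test (adjusted p = 0.372). Ranks 11, 21 and 9 followed, with differences of -0.634, -0.612 and -0.600 points, and each of them overlapped between the groups.

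The largest gain in old non-reproducing females, that of rank 7, rested on 2 of the 4 libraries. This gene, maker-000004F-augustus-gene-31.54, took 0.368, 0.722, 0.481 and 0.837% of reads in Y, 0.195, 0.228, 0.0617 and 0.426% in Or and 0.101, 3.17, 4.76 and 0.0977% in On replicates. Old non-reproducing replicates 2 and 3 lay above every other library, and replicates 1 and 4 lay below every young library. Its mean share was higher than in young females by 1.43 points (SE 1.17), with a log2 change of 1.86 (SE 1.11) that did not pass edgeR's quasi-likelihood test (adjusted p = 0.289). Against old reproducing females the log2 change was 3.35 (SE 1.18, adjusted p = 0.410 with edgeR), and DESeq2 called it with an adjusted p of 0.0305.

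The gene of rank 4 was high in the same 2 old non-reproducing libraries. It took 0.195, 1.75, 1.32 and 2.10% of reads in Y, 0.678, 0.762, 0.250 and 0.856% in Or and 0.308, 3.14, 2.79 and 0.323% in On replicates. Ranks 4 and 7 together held 6.31 and 7.55% of reads in old non-reproducing replicates 2 and 3, 0.409 and 0.420% in replicates 1 and 4, and 0.312 to 2.94% in the other groups. Without these 2, the members held 42.0% ± 1.26 in Y, 39.9% ± 1.98 in Or and 34.5% ± 1.92 in On females (SD, n = 4 each). The On share then differed by -7.49 points (SE 1.15) from Y and by -5.47 points (SE 1.38) from Or, without overlap. The 2 genes were left out after their high levels in On libraries were seen, so this is a description.

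Rank 10 was the only member among the 5 largest gains against young in both old groups. This gene, maker-000013F-snap-gene-15.70, took 0.394, 0.153, 0.426 and 0.0154% of reads in Y, 1.19, 0.444, 1.02 and 1.87% in Or and 1.27, 0.875, 1.84 and 0.861% in On replicates. Every old library was higher than every young library. Its mean share was higher than in young females by 0.963 points (SE 0.250) in old non-reproducing and 0.884 points (SE 0.309) in old reproducing females. The log2 changes of 2.23 (SE 0.83, adjusted p = 0.0964) and 1.97 (SE 0.83, adjusted p = 0.339) did not pass edgeR's quasi-likelihood test, with a spread among the young libraries that reached down to 0.0154%.

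The other 4 of the 10 most abundant members, ranks 3, 5, 6 and 8, kept large shares in all groups. Rank 3 held 1.54% ± 0.424 of reads in Y, 1.46% ± 0.287 in Or and 1.69% ± 0.185 in On females (SD, n = 4 each). Rank 5 held 1.30% ± 0.527, 1.18% ± 0.368 and 0.871% ± 0.445, and rank 6 held 1.18% ± 0.666, 1.02% ± 0.0709 and 0.980% ± 0.545. Rank 8 held 0.804% ± 0.335, 1.10% ± 0.206 and 0.926% ± 0.300. For each of the 4 the libraries of the groups overlapped in every comparison, and none was called by edgeR.

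Ranks 9, 11 and 21, which had losses in old non-reproducing females, each overlapped between young and old libraries. Rank 9 took 0.0146, 1.43, 1.54 and 1.91% of reads in Y, 1.27, 0.757, 0.477 and 1.02% in Or and 0.117, 1.25, 1.00 and 0.125% in On replicates. Rank 11 took 0.0825, 1.47, 0.546 and 2.71% in Y, 1.25, 0.136, 0.263 and 0.475% in Or and 0.0570, 0.833, 1.37 and 0.0171% in On replicates. Rank 21 took 1.96, 0.459, 0.945 and 0.135% in Y, 0.250, 0.220, 0.118 and 0.233% in Or and 0.145, 0.0428, 0.604 and 0.258% in On replicates. Young replicate 1 was the lowest young library for ranks 9 and 11 and the highest for rank 21.

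Few members changed significantly between old non-reproducing and young females. By edgeR's quasi-likelihood test, with calls made at an adjusted p under 0.05, 4 of the 100 members were called, against 12% of all tested genes. One of the 4 was higher, against 7.73% of tested genes, and 3 were lower, against 4.26%. Only 2 of the 4 were in the top 100 of all 3 group means, so the count includes members that entered through the groups where they were high and is given as a description. With 1 library left out the count was 0 to 5: it was 0 without replicate 4 of the young or the old non-reproducing group, 1 without replicate 2 of either, and 2 without old reproducing replicate 1, 2 or 3 or old non-reproducing replicate 3. At an unadjusted p under 0.05 there were 16 members, against 30.9% of tested genes. DESeq2 called 11 members, against 23.8% of tested genes.

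The member that rose was that of rank 83. It stood at 183, 91.9, 88.0 and 13.5 CPM in Y, 1302, 234, 473 and 4440 CPM in Or and 871, 1560, 6318 and 2674 CPM in On replicates. Every old library exceeded every young one, with overlap between the old groups. Its log2 change between old non-reproducing and young females was 4.94 (SE 1.19, adjusted p = 0.0271 with edgeR's quasi-likelihood test). In old reproducing females it was 3.88 (SE 1.13), which did not pass (adjusted p = 0.123, edgeR). The call held in 15 of the 22 alternatives. It was lost without young replicate 2 or 4 or without old non-reproducing replicate 3 or 4. It was also lost at an adjusted p under 0.01, without the filter on low counts, and with replicate numbers added to the fit. Over the 22 alternatives the adjusted p of rank 83 was at most 0.0924. Its mean over the 12 libraries, and so its membership, came from the old libraries.

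The gene of rank 40 had a similar order of levels. It stood at 741, 409, 1131 and 59.8 CPM in Y, 4328, 1043, 2211 and 5449 CPM in Or and 2119, 3267, 8620 and 2659 CPM in On replicates. Old non-reproducing libraries lay above all young ones, and old reproducing replicate 2 fell within the young range. Its log2 change of 2.82 (SE 0.89) in old non-reproducing females did not pass edgeR's quasi-likelihood test (adjusted p = 0.0604).

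The 3 members that fell were those of ranks 19, 32 and 85. Rank 19 took 0.838, 0.584, 0.654 and 0.732% of reads in Y, 0.517, 0.505, 0.441 and 0.424% in Or and 0.374, 0.383, 0.435 and 0.349% in On replicates. Rank 32 took 0.575, 0.422, 0.454 and 0.517% in Y, 0.367, 0.329, 0.292 and 0.297% in Or and 0.281, 0.248, 0.284 and 0.283% in On replicates. For both genes each of the 8 old libraries lay below each of the 4 young ones, with narrow spreads within each group. The log2 changes in old non-reproducing females were -0.89 (SE 0.24, adjusted p = 0.0380) for rank 19 and -0.87 (SE 0.22, adjusted p = 0.0317) for rank 32, with edgeR's quasi-likelihood test.

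Rank 85 stood at 2490, 2460, 2195 and 2039 CPM in Y, 1163, 2567, 1479 and 683 CPM in Or and 1232, 610, 753 and 231 CPM in On replicates. The old non-reproducing libraries lay below all young ones, and old reproducing replicate 2 lay above them. Its log2 change in old non-reproducing females was -1.74 (SE 0.50, adjusted p = 0.0449, edgeR's quasi-likelihood test). All old non-reproducing libraries lay below the mean of rank 100, 1295 CPM. The membership of rank 85 thus came from the other groups, and its call is given as a description. In single left-out fits rank 19 was called in 3 of 12, rank 32 in 7 of 12, rank 83 in 8 of 12 and rank 85 in 3 of 12, so each call depended on individual libraries.

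**Figure D3:**
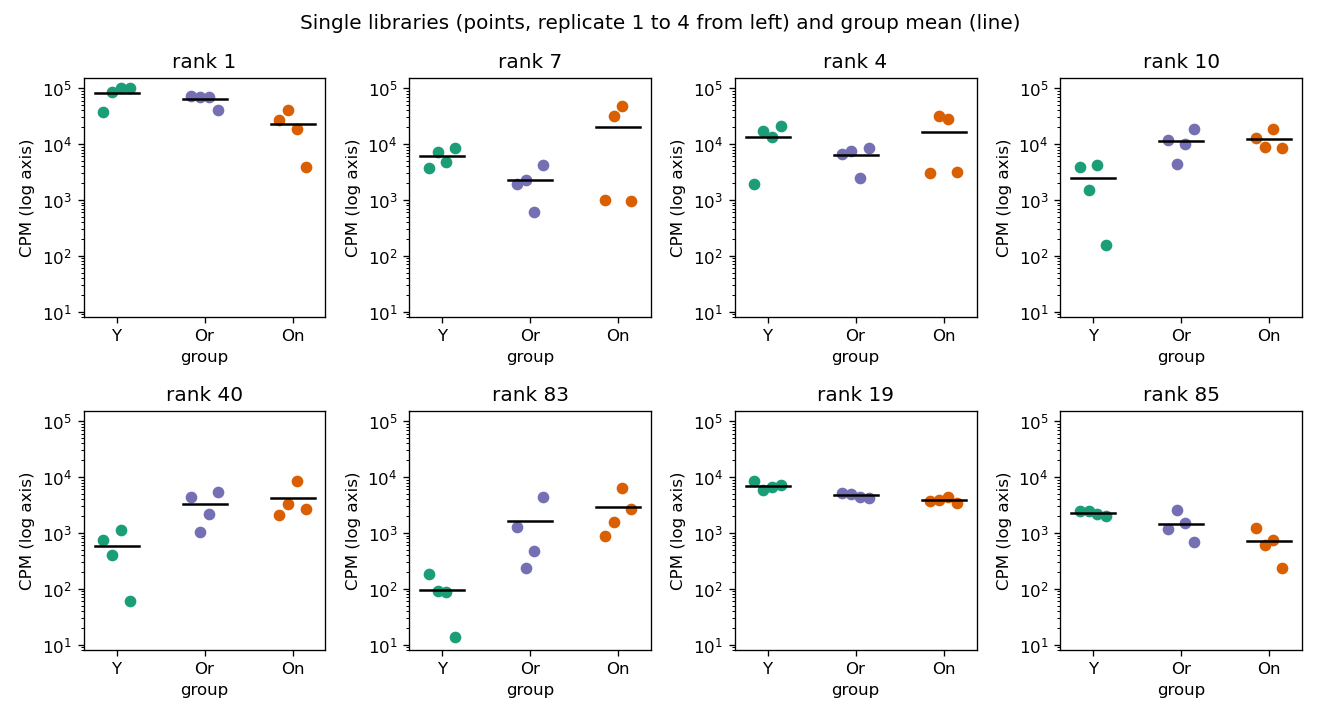
CPM of single members in each library (y axis, log scale), for ranks 1, 7, 4, 10, 40, 83, 19 and 85, with 1 point per library, a line at the group mean and the 3 groups on the x axis. Ranks 10 and 83 lie higher in all 8 old libraries than in any young one and rank 19 lower, while rank 7 is spread from 977 to 47580 CPM among the old non-reproducing libraries.

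No member passed the edgeR test in the other comparisons. Between old reproducing and young females 0 of 100 members were called, against 2.88% of tested genes (2.8% higher and 0.0728% lower), and the lowest adjusted p was 0.123. At an unadjusted p under 0.05 there were 10 members, against 13.2% of tested genes, and DESeq2 called 4, of ranks 19, 32, 44 and 83, against 5.48% of tested genes by that tool. Between the old groups 0 members were called, against 0% of tested genes, with a lowest adjusted p of 0.213. There 6 members had an unadjusted p under 0.05, against 8.06% of tested genes, and DESeq2 called 3, of ranks 7, 25 and 87, against 2.89% of tested genes by that tool. The edgeR count between the old groups depended on 1 library: without old non-reproducing replicate 1, 327 genes (2.91% of those tested) and 1 member, rank 87, were called.

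Members were also compared by whether the libraries of 2 groups overlapped. Between old non-reproducing and young females, 10 members had no overlap between the groups, against 11.8% of tested genes. On the higher side these were the 6 of ranks 10, 40, 43, 44, 74 and 83, against 8.58% of tested genes, and on the lower side the 4 of ranks 19, 26, 32 and 85, against 3.25%. Between old reproducing and young females there were 9, against 9.89% of tested genes, 6 of them higher (9.3%) and 3 lower (0.592%). Between the old groups there were 3, ranks 1, 32 and 87, against 4.43%, all of them lower (3.05%, with 1.38% of tested genes higher). The 8 old libraries lay entirely above the young ones for ranks 10, 44 and 83, against 5.33% of tested genes, and below them for ranks 19, 26 and 32, against 0.309%.

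Ranks 26 and 44 belong to these separated members without passing edgeR's test. Rank 26 stood at 6308, 4364, 4828 and 5736 CPM in Y, 4245, 4050, 3181 and 4015 CPM in Or and 3174, 3305, 3498 and 3172 CPM in On replicates. Rank 44 stood at 1137, 1708, 1301 and 1680 CPM in Y, 4726, 4454, 1910 and 2338 CPM in Or and 2640, 3954, 1754 and 2731 CPM in On replicates. Old and young ranges lay close to each other for both.

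The median log2 change of the 100 members was -0.02 between old non-reproducing and young females, -0.19 between old reproducing and young females and 0.10 between the old groups. The corresponding medians over all tested genes were -0.00, -0.03 and -0.00. An absolute log2 change over 1 was found for 11, 10 and 9 members in the 3 comparisons, against 27, 16.2 and 11.8% of tested genes. Log2 changes above 0 were found for 47, 37 and 62 of the 100 members. Over all tested genes this share was at most 50% in each comparison, since their medians lay just below 0. By the medians, the members' centre lay below that of all genes in old reproducing against young females and above it between the old groups. The median SE of a single member's log2 change was 0.34 in both comparisons, and these shifts were not tested.

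**Figure D4:**
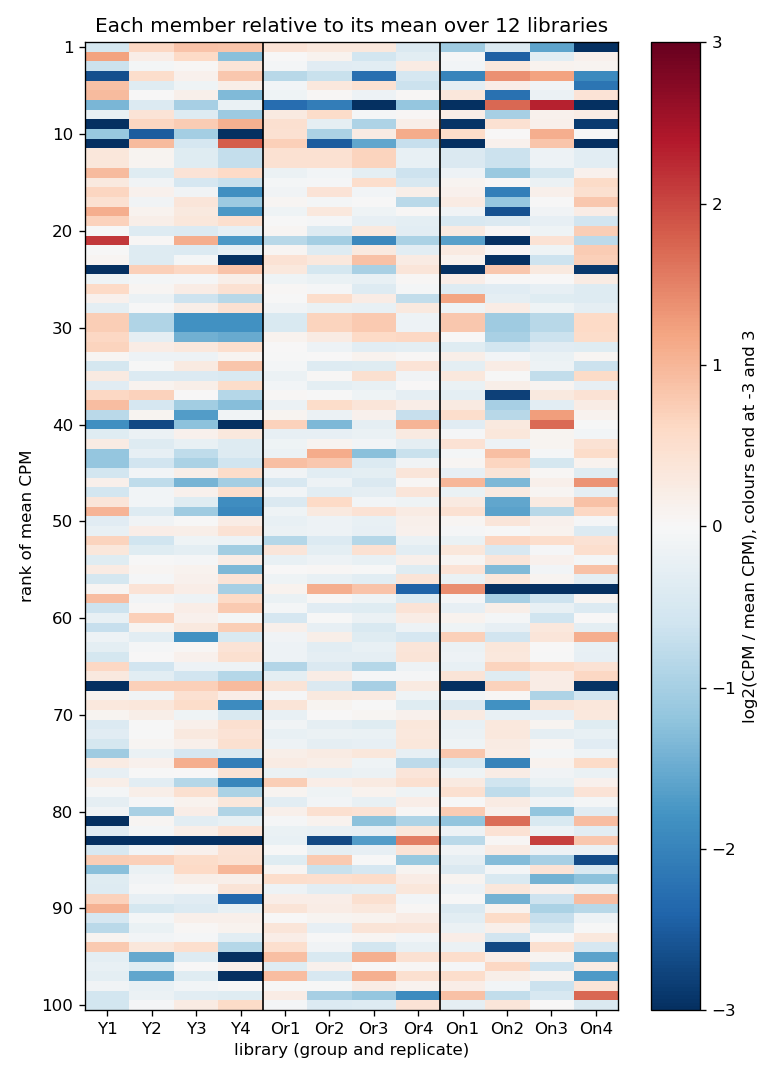
Level of each of the 100 members (rows, by rank) in each library (columns), shown as the log2 of its CPM over its mean CPM in the 12 libraries, with colours that end at -3 and 3. Young replicate 4 holds 25 members at their highest and 25 at their lowest, and young replicate 1 holds 29 at their lowest.

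The members differed widely in how stable their levels were. The fold between the highest and lowest library had a median of 3.39 over the 100 members, was under 2 for 22 of them and over 10 for 22. The most even was rank 33, with a 1.31-fold range over the 12 libraries. The widest was rank 57, at 2311, 2965, 2553 and 1105 CPM in Y, 2390, 4730, 3997 and 415 CPM in Or and 5839, 7.70, 6.22 and 252 CPM in On replicates, a 938-fold range. Its highest and its lowest library were both old non-reproducing.

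Single libraries held many of the extremes. Young replicate 1 had the lowest level of 29 members and the highest of 16, and young replicate 4 had the lowest of 25 and the highest of 25. The median SD of log2 CPM within a group was 0.51 for members in Y, 0.31 in Or and 0.48 in On females, against 0.36, 0.29 and 0.34 for all tested genes. What sets these libraries apart was not tested.

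The make-up of the top 100 also varied between libraries. Of the members, 37 were in the top 100 of all 12 libraries and 11 in that of fewer than 6, with 3 the fewest. A total of 196 genes entered the top 100 of at least 1 library. The top 100 of the group mean held 87 members in Y, 92 in Or and 86 in On females, and 77 members were in all 3.

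With each library given its own top 100, the mean concentration of reads was lower in the old groups, and old reproducing libraries lay below all young ones. Its own 100 most abundant genes held 45.9% ± 0.444 of reads in Y, 41.7% ± 1.93 in Or and 40.8% ± 3.52 in On libraries (SD, n = 4 each). Old non-reproducing replicate 3, at 45.9%, overlapped the young range. Its own 10 most abundant held 21.5, 17.1 and 15.3% on average. The number of genes that together held 50% of reads was 132 to 142 in Y, 154 to 210 in Or and 133 to 219 in On libraries. The value of 133 belonged to old non-reproducing replicate 3, the library with the highest level of rank 7.

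The members were somewhat longer at the median than tested genes, and abundance by reads is not abundance by molecule. Their median length was 2668 nt (297 to 17849), against 2204 nt for tested genes and 1481 nt for all genes. By RPKM, which divides the CPM by the length in units of 1000 nt, 63 of the 100 members stayed among the 100 highest genes, and the lowest stood at place 805. The highest mean RPKM, 15042, was that of rank 22, the shortest model at 297 nt, while rank 1 stood at place 3 by that measure.

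Some members had nearly equal counts in every library. Ranks 12 and 13 lie on the same contig with lengths of 15078 and 2458 nt, and their counts differed by 38 to 320 reads where rank 13 had 83295 to 265379. Ranks 29 and 30 differed by 15 to 166 reads. In both pairs the counts over the 12 libraries were closer than sampling noise (chi-square per degree of freedom 0.0136 and 0.0295), so each pair is uncertain as 2 genes. The limit set for such pairs was 0.5. Ranks 20 and 22, on the same contig, came next at 0.779, with a ratio of counts of 1.08 to 1.09 in every library. They were kept as 2 members, but are also uncertain as 2 genes. With 1 model of each of the 2 pairs under the limit left out, an alternative added after the data had been seen, the members' shares differed from young. The differences were -5.84 points in old non-reproducing and -3.424 points in old reproducing females.

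Some members shared parts of their ID. The 100 lie on 31 contigs, and 14 lie on contig 000000F, which holds 6.22% of all gene models. The IDs carry a contig and a number, called a stretch here, whose meaning the sources do not state, and 38 members share both with another member, in 16 such stretches. In 5 stretches there were 3 or more members. The annotation build is not given in the sources used here, so no positions are printed.

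In 2 of these stretches the members were low in the same libraries. Ranks 9, 24 and 67 summed to 0.0298, 2.44, 2.51 and 3.05% of reads in Y, 2.05, 1.20, 0.791 and 1.80% in Or and 0.192, 2.30, 1.75 and 0.206% in On replicates. Young replicate 1 and old non-reproducing replicates 1 and 4 were low for this stretch, and the groups overlapped. Ranks 2, 21 and 49 summed to 6.77, 2.82, 3.92 and 0.992% in Y, 2.38, 2.54, 1.73 and 2.02% in Or and 2.32, 0.467, 2.26 and 2.68% in On replicates. Here young replicate 4 and old non-reproducing replicate 2 were low, and young replicate 1 was the highest. These lows were not particular to the 2 stretches, since some members on other contigs had them too. Rank 11 took 0.0825% in young replicate 1 and 0.0570 and 0.0171% in old non-reproducing replicates 1 and 4. In young replicate 4 and old non-reproducing replicate 2, rank 6 took 0.424 and 0.224%, and rank 23 took 0.0555 and 0.0565%. The sum over ranks 42, 75 and 89, also a stretch, was lowest there (0.262 and 0.326%).

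The sum over ranks 19, 28 and 37, another stretch, separated young from old libraries, but among its members only rank 19 did. It summed to 1.60, 1.44, 1.40 and 1.45% of reads in Y, 1.18, 1.13, 1.05 and 1.15% in Or and 0.974, 0.896, 1.15 and 1.07% in On replicates. No old library reached the young range. Rank 28 alone overlapped, at 0.327 to 0.557% in Y, 0.345 to 0.495% in Or and 0.337 to 0.472% in On libraries, and so did rank 37. Rank 19 is one of the 3 members that fell. Rank 32, another of the 3, lies in a stretch with ranks 50, 54 and 88, which summed to 1.10% ± 0.107 in Y, 0.894% ± 0.0796 in Or and 0.936% ± 0.0725 in On females (SD, n = 4 each).

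**Figure D5:**
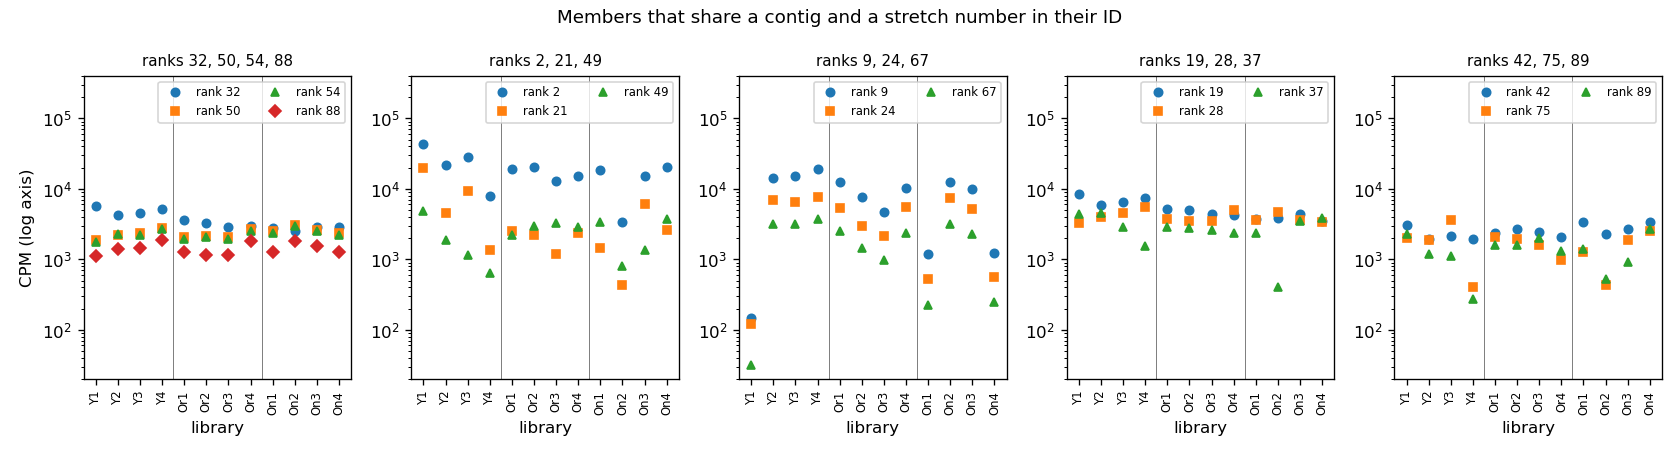
CPM (y axis, log scale) of the members in each of the 5 stretches that hold 3 or more members, in the 12 libraries (x axis), with 1 symbol per member. Ranks 9, 24 and 67 are low together in Y1, On1 and On4, and ranks 2 and 21 both have their lowest level in On2.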

How the data were processed

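Extraction (Qiagen RNeasy) and a strand-keeping library kit (NEBNext Ultra II) are named per the labels' protocols. STAR and SAMtools are named in the submitters' processing notes. The genome build, the counting program and the use of strand are not given in the sources used here. The authors deposited whole-number read counts per gene model and RPKM values for the same 12 libraries. The deposited RPKM values equal counts per 1000 nt and per 1000000 of the library total to within 1.26e-06 percent, which gave the model lengths, and 1 gene had none.

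Groups came from the titles of the samples. Shares are a gene's counts over the library total, and a contribution is the difference of 2 group means in percentage points, with its standard error. Tests used edgeR 4.0.16 in R 4.3.3 (TMM scaling, filterByExpr, robust quasi-likelihood fit over all 12 libraries) with Benjamini-Hochberg adjustment over 10987 genes. On simulated counts for old non-reproducing against young, the fit recovered 22% of 2-fold, 70% of 4-fold, 74% of 8-fold and 84% of 16-fold changes. It made 2 false calls. Changes of 2-fold were thus mostly missed there. The filter kept at least 99.75% of reads. The standard error of a log2 change was its size over the square root of F. Alternatives were DESeq2 1.42.0, limma 3.58.1 on log2(RPKM + 1) and log2(RPKM + 0.1), other scalings, filters and choices of members, and each library left out. Named members were ranks 1 to 10, the 5 largest gains and losses and up to 3 called genes per direction and comparison, and the members of stretches with 3 or more. The other ranks given were named for their values after these were seen. Replicates of a group were distinct libraries: the 18 pairs gave 58.9 or more for chi-square over its degrees of freedom. The members, lists and tests were chosen with earlier results of these data known. Gene lists by product name were not used here, since IDs are not paired with names.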

Additional observations from a re-analysis of the deposited data

Results flagged for a closer look

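In 114 groups of 4 libraries (33 members and 5 summary shares, in each of the 3 groups), the gap of the highest or lowest library to the next, over the group's range, exceeded Dixon's 95% limit for 4 values in 8. Chance flags about 1 in 20 groups, or 5.7 here.

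Without rank 1, the members' share was 41.4% in old non-reproducing replicate 3, against 33.7 to 34.6% in the others (ratio 0.874). Rank 1 took 4.15% of reads in old reproducing replicate 4, against 6.93 to 7.38% in the others (0.863). Rank 50 took 0.268% in that library, against 0.207 to 0.217% (0.836), and rank 54 took 0.254%, against 0.196 to 0.205% (0.839). In old non-reproducing replicate 2, rank 8 took 0.477%, against 1.03 to 1.10% (0.889), and rank 32 took 0.248%, against 0.281 to 0.284% (0.914). In young replicate 1, rank 24 took 0.0120%, against 0.651 to 0.762% (0.853), and rank 67 took 0.00319%, against 0.319 to 0.376% (0.847). Ranks 24 and 67 share a stretch, as do ranks 50 and 54, so neither pair makes 2 separate flags.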

How the results depend on the processing

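The members' mean share was lower in both old groups than in young under all choices of members and scalings tried. Some of these differences lay within the spread between libraries. In Y, Or and On females the mean share was 37.9, 34.1 and 31.9% for the 100 genes highest by RPKM, 35.3, 32.0 and 29.2% for 50 members, and 53.5, 50.5 and 47.8% for 200. The young share was 42.4% with members chosen in old non-reproducing libraries, 45.9% with each library's own top 100 and 45.7% with TMM-scaled totals. With rank 1 left out of members and totals, chosen after seeing the data, it was 38.9% in young and 36.8% in old reproducing females, and old non-reproducing females differed from young by -2.21 points. The SD was then 1.59 in young and 3.64 in old non-reproducing females. By summed RPKM the share was 39.1% (SD 1.42) in young and 38.7% (SD 1.11) in old reproducing females. The differences from young were then -2.47 points in old non-reproducing and -0.409 points in old reproducing females. TMM-scaled totals gave -6.74 points for old reproducing against young and 0.239 points between the old groups, a change of sign. With these totals the SD was 4.81 in young and 8.56 in old non-reproducing females. Leaving out 1 library moved the share over 43.5 to 44.2% in young, 39.9 to 41.5% in old reproducing and 36.4 to 39.2% in old non-reproducing females. The differences then ranged from -7.66 to -4.72 points for old non-reproducing and -4.13 to -2.46 for old reproducing females against young, and from -4.48 to -1.58 between the old groups. The contribution of rank 1 ranged from -7.26 to -5.19, -3.15 to -0.991 and -4.85 to -3.49 points.

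For old non-reproducing against young, the members called numbered 4 (12% of all tested genes), but 0 at an adjusted p under 0.01 (2.79%), 1 with only the 8 libraries compared (4.4%), 11 with DESeq2 (23.8%) and 0 to 5 with 1 library left out (4.56 to 17.7%) (0 without young or old non-reproducing replicate 4, 1 without young or old non-reproducing replicate 2, 2 without old reproducing replicate 1, 2 or 3 or old non-reproducing replicate 3). Old reproducing against young gave 4 with DESeq2 (5.48%) and 0 to 0 with 1 left out (1.75 to 2.66%). The old groups gave 3 (2.89%) and 0 to 1 (0 to 2.91%). Same-numbered libraries deviated with correlations of -0.458 to 0.361, over 0.1 in 3 of 12 pairs. Differently numbered libraries ranged from -0.518 to 0.518, so these values cannot decide whether the numbers pair the libraries. The replicate block gave 1 call (4.53%) for old non-reproducing against young. Without scaling, the median log2 change of all genes for old reproducing against young moved from -0.03 to 0.09.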
